A study of Mus musculus with 11 samples.

Results

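Late-annotated miRNAs, here the mouse mature miRNAs whose name carries a number of 5000 or above, were described across sperm, oocyte and embryo libraries. Of 619 listed miRNAs with such a number, 97 had at least 10 raw reads summed over the 7 sperm libraries and formed the set, out of 2304 listed features in all. They were selected on the sum of their sperm reads, so their presence in sperm is a description and not a result. Small RNA came from cauda epididymal sperm of adult C57BL/6 mice: 2 libraries of wild type (WT), 2 of Dicer cKO and 3 of Drosha cKO. Both cKO groups were germline conditional knockouts made by Cre-loxP, with flox and Cre lines; the Cre driver is not given in the labels used here. The other 4 libraries, 1 of each kind, came from superovulated WT oocytes and from 2PN (pronuclear) embryos made by injecting WT, Dicer cKO or Drosha cKO sperm into WT oocytes. Sperm RNA was prepared from many cells, so fewer cells of a type and less RNA per cell cannot be told apart. Whether the libraries of 1 group are different animals is not in the labels; a p-value therefore sets a difference against the spread among these libraries, which may be technical. The deletions could not be checked, since only small RNA was sequenced.

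Most miRNAs are made in 2 cuts. Drosha, with its partner Dgcr8, cuts a hairpin out of a primary transcript in the nucleus, and Dicer cuts the loop from that hairpin in the cytoplasm, leaving a 5p and a 3p arm. A mirtron skips the first cut: the hairpin is a spliced intron or 1 end of one, and its 3p arm ends in the AG that closes the intron. Some other hairpins start at a transcription start and also bypass Drosha. Numbers are given to miRNAs in the order of annotation, so high numbers mark entries added late, many of them rare reads of deep sequencing studies or mirtrons, and for some the evidence as a miRNA is thin.

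Mature sequences were taken from RefSeq on GRCm38.p6, where 86 of the 97 members matched by name. The members with the most sperm reads, together with a less abundant one that stood high in both knockouts, are shown first, with the seed (bases 2 to 8) in capitals.
miR-8101: gGCGAGCGgagccggaggagcc
miR-6240: cCAAAGCAucgcgaaggcccacggcg
miR-6412: uCGAAACCauccucagcuacua
miR-8112: uCUCCGCCaccuccaccgca
miR-5130: cUGGAGCGcgcgggcgaggcaggc
miR-5126: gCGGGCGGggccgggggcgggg
miR-5121: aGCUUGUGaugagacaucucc
miR-6538: cGCGGGCUccggggcggcg
miR-5621-5p: aGGAGGUCcuggggccgcccuga
No pair of these shares a seed. Over the 86 matched members 85 different seeds were counted, and the shared one, CUGGGGA, belonged to miR-6975-5p and miR-7005-5p. No member shared its seed with any of the 365 matched other miRNAs that had at least 10 sperm reads.

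All of these but miR-6240 overlap an annotated gene by position. The strand of the gene was not compared for this overlap, so a miRNA named within a gene may lie antisense to it. miR-8101 is encoded at chr11:102230103-102230124 on the minus strand within Hdac5, a histone deacetylase gene, and miR-8112 at chr6:71271745-71271764 on the plus strand within Krcc1. miR-5130 is at chr14:102982608-102982631 on the minus strand within Kctd12, and miR-5126 at chr1:84695890-84695911 on the plus strand within Dner. miR-6538 is at chr12:26414970-26414988 on the minus strand, inside an intron of Rnf144a, and miR-5621-5p at chr11:115795824-115795846 on the plus strand within Tmem94. miR-6240, at chr5:114851973-114851998 on the plus strand, overlaps no gene in that table, and miR-6412, at chr10:122648412-122648433 on the plus strand, lies in the long noncoding RNA gene Gm36284. miR-5121, at chr7:45126925-45126945 on the minus strand, lies in Snord33, a small nucleolar RNA hosted in an intron of the ribosomal protein gene Rpl13a. It was the only matched member found, with at most 1 mismatch, in an annotated ribosomal, small nuclear, small nucleolar or mitochondrial RNA. Only genes annotated in GENCODE vM1 on NCBIM37 were searched. A match to ribosomal RNA missing from that annotation could not be found, for any member. Nuclear tRNA sequences were not used here.

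The 7 tested 3p arms with a sequence (tested means that they passed the filter on low counts described with the first comparison) are shown because all 7 end in AG, the intron's last bases, here in capitals.
miR-6914-3p: ucuguccaccucuucccAG
miR-6917-3p: gucacuucucuucccaccacAG
miR-6918-3p: ugagccugugcccuucucacAG
miR-7009-3p: ucuuuuccccucucccugcAG
miR-7028-3p: ccuucucuucccccucggccAG
miR-7045-3p: ucuccccccucccccgcacAG
miR-7087-3p: ugcuggcucucuccccugccAG
In 6 of them, all but miR-6914-3p, the hairpin's 3′ end lay within 5 bases of an annotated acceptor site, in Erbb3 for miR-6917-3p, Nipsnap1 for miR-6918-3p, Anxa5 for miR-7009-3p, Tchp for miR-7028-3p, Chd4 for miR-7045-3p and Sidt2 for miR-7087-3p. The hairpin of miR-6914-3p lies in Ankrd52, but in no annotated intron. On GRCm38.p6, miR-6914-3p is at chr10:128382882-128382900 and miR-6918-3p at chr11:4891381-4891402, both on the plus strand, and miR-6917-3p is at chr10:128584437-128584458 and miR-7087-3p at chr9:45939521-45939542, both on the minus strand. The intron positions come from a match of each hairpin to the genome NCBIM37 with GENCODE vM1 models, a different build from the coordinates above.

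Intron ends were common among the members as a whole. Of 80 members whose hairpin was placed on NCBIM37, 55% had an end within 5 bases of an acceptor or a donor site. Hairpins that span an intron from end to end are in that share and were not counted apart. Among them, the miR-7080 hairpin (chr8:123130106-123130172 on GRCm38.p6) was as long as its Cpne7 intron, 67 bases. That of miR-7088 (chr9:108081498-108081583) was as long as its Mst1 intron, 86 bases. The miR-6944 hairpin (chr13:55477681-55477776) was as long as its Dbn1 intron, 96 bases. The miR-6974 hairpin (chr17:35204475-35204557) was as long as its Lta intron, 83 bases. Of the other placed hairpins, 13 lay inside an intron and 23 in none. The share with an end at an intron end was 57.9% among all 511 placed miRNAs numbered 5000 and above. Among 332 other miRNAs with at least 10 sperm reads it was 2.71%. The members were thus close to late-numbered miRNAs in general. Among 3p arms, 12 of 20 matched members ended in AG (60%), against 11 of 153 among other miRNAs (7.19%).

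The members were also GC-rich. The median GC content of their mature sequences was 60.5%, with a range from 28.6% to 100%, against 45.5% in 365 other miRNAs of that abundance and 57.1% in all 542 matched late-numbered miRNAs. Of the 86, 44 had a GC content of 60% or more (51.2%), against 38.0% of all matched late-numbered miRNAs and 14.0% of the other miRNAs. miR-5126 was made of G and C alone, miR-6538 had 94.7%, miR-5130 83.3% and miR-8101 81.8%, while miR-6412 had 45.5% and miR-5121 47.6%. The other miRNAs matched by name in 78.3% of cases, so their values describe the matched ones.

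**Figure D1:**
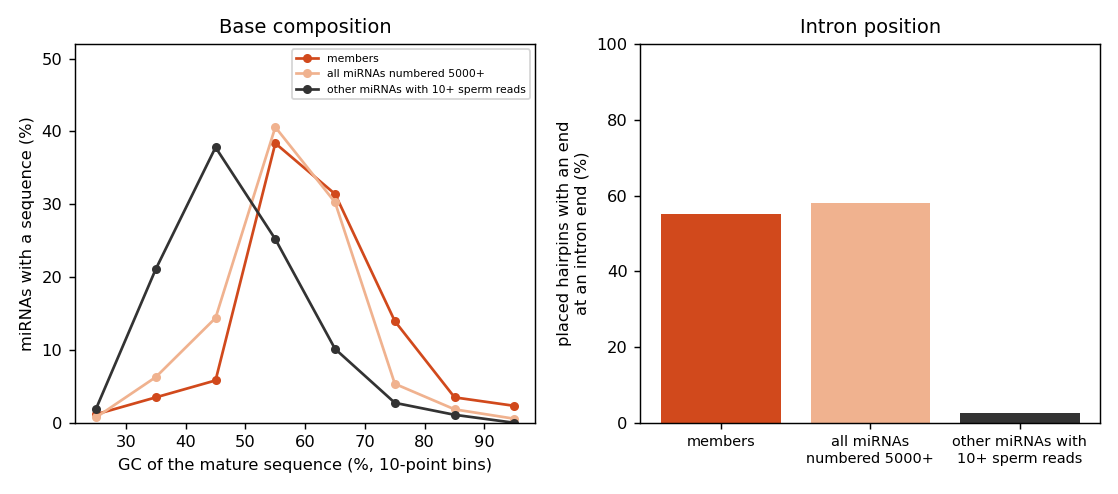
The left panel plots the share of matched miRNAs in each 10-point bin of GC content (x axis, %), for the members, all miRNAs numbered 5000 and above and other miRNAs with at least 10 sperm reads. The right panel gives the share of placed hairpins with an end at an intron end, 55% for the members, 57.9% for all late-numbered miRNAs and 2.71% for the others.

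Reads were concentrated in few members. The 97 held 9324 of 712255 listed sperm reads (1.31%). miR-8101 had 1807 sperm reads, miR-6240 1447 and miR-6412 1117, and these 3 held 46.9% of all member reads. The leading 8, which add miR-8112, miR-5130, miR-5126, miR-5121 and miR-5099, held 65.9%. At the other end 47 members had 10 to 19 sperm reads and 33 had 20 to 99, and 27 of the 97 had a read in every sperm library. Drosha cKO library 1 gave 42.3% of all member reads, and 62 members had more raw reads there than in any other sperm library, so a sum over libraries favours miRNAs that are high in it. In WT libraries alone 25 members reached 10 reads, without any WT read 77 did, and 38 reached it in Drosha cKO library 1 alone.

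At the floor itself, miR-6391, miR-6909-5p and miR-7050-5p stood just inside with 10 sperm reads each, and miR-5107-5p, miR-5132-5p and miR-6368 just outside with 9. Exactly 10 reads were counted for 6 members and 9 reads for 17 non-members. Of the 522 left out, 48 had no sperm read and 474 had 1 to 9. The members comprised 42 with a 5p name, 22 with a 3p name and 33 without an arm, and both arms of 5 hairpins were among them.

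The summed share of the members was highest in Drosha cKO sperm. Their share of listed reads was 0.811% in WT library 1 and 0.447% in WT library 2. It was 1.04% and 1.20% in the Dicer cKO libraries, and 3.91%, 2.32% and 4.30% in those of Drosha cKO. The 3 groups did not overlap: every Dicer cKO library lay above both WT libraries, and every Drosha cKO library above both Dicer cKO libraries. The group means were 0.629% ± 0.257 (SD, n = 2), 1.12% ± 0.115 (SD, n = 2) and 3.51% ± 1.05 (SD, n = 3). No test was made of this sum, because the same reads chose the members. On the scale of the authors' RPM the sum was 175 and 449 RPM in WT, 459 and 842 in Dicer cKO, and 1053, 676 and 908 in Drosha cKO. On that scale the knockout libraries all lay above both WT libraries, but the Dicer and Drosha groups overlapped. All other miRNAs together stood at 20821 and 99547 RPM in WT sperm, at 43086 and 68461 in the Dicer cKO libraries and at 19166 to 27291 in those of Drosha cKO. The part of the other miRNAs' level in the members' share was not tested.

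**Figure D2:**
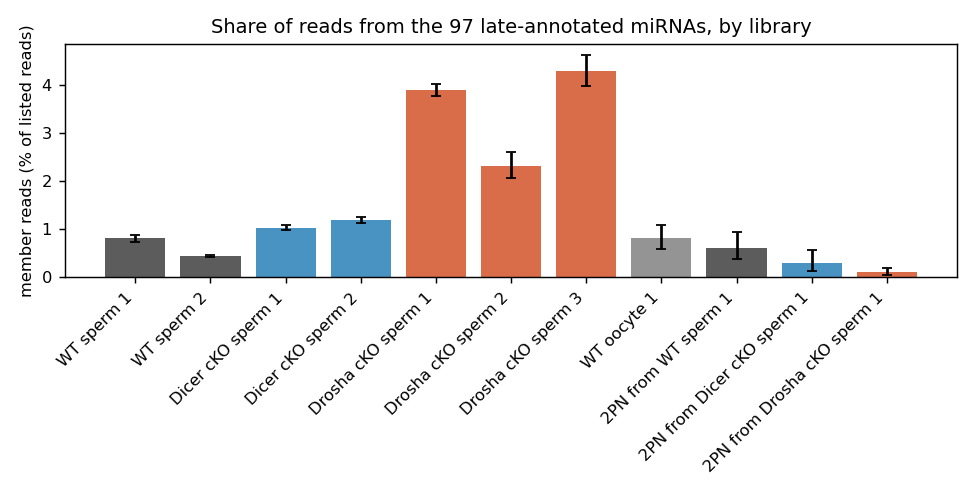
Bars give the reads of the 97 members as a percentage of listed reads in each of the 11 libraries, with 95% exact (Clopper-Pearson) intervals that cover counting error only. The 3 Drosha cKO sperm libraries stand highest, at 2.32% to 4.30%, and the oocyte and 2PN libraries at 0.112% to 0.814%.

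Depth and cell content differed between these libraries. Listed reads numbered 73377 in WT library 1 and 278890 in WT library 2, 122989 and 108141 in the Dicer cKO libraries, and 100934, 12003 and 15921 in the Drosha cKO libraries. In the last 2 libraries, 1 read is a large step, and a count of 0 still allows 0.0250% and 0.0188% of listed reads. Germ cell marker miRNAs such as miR-34c-5p, all 7 of which were detected in every sperm library, summed to 15.7% and 17.2% of listed reads in WT sperm. In the Dicer cKO libraries they summed to 0.772% and 0.824%, and in the Drosha cKO libraries to between 1.41% and 2.32%. The 8 epithelial markers of the miR-200 family and miR-205 summed to 1.67% and 1.84% in WT sperm, and to 13.7% and 16.4% in the Dicer cKO libraries. They lay between 11.5% and 14.4% in the Drosha cKO libraries. The 7 markers of red cells and leukocytes summed to 0.513% and 0.525%, 5.02% and 5.05%, and 2.16% to 2.47% in the same order. The 6 stromal markers ran from 0.315% to 0.795%, 1.88% to 2.62% and 1.08% to 1.69%. As summed shares of listed reads, the germ cell markers were lower and the other 3 lists higher in all knockout libraries than in WT. In RPM the stromal sums overlapped, at 171 and 317 in WT and 455, 315 and 293 in Drosha cKO. In the edgeR fit described below, 0 of 5 tested stromal markers were called in Drosha cKO and 2 rose in Dicer cKO. Of the 7 red cell and leukocyte markers, 4 rose and 1 fell in Drosha cKO, and 4 rose and 0 fell in Dicer cKO. All 7 germ cell markers fell and all 8 epithelial ones rose in both. The part of these lists in the members' differences was not tested. None of the markers is a member.

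For the tests the counts of all 7 sperm libraries were fitted together with edgeR, over 335 features with enough reads, and p-values were adjusted over all 335. Among these were 34 members, from 19 to 1807 sperm reads. The other 63 had at most 62. A member that is low in WT can pass such a filter through a group in which it is high, so counts over the 34 describe those members and not the 97. The fold and p-value of such a member in that group are not independent of that choice. Members with at most 2 reads in WT passed through knockout libraries. These were miR-6914-3p, miR-6917-3p, miR-6918-3p, miR-7036-5p, miR-7087-3p and miR-7115-5p. Levels below are in CPM (counts scaled to equal library totals) with TMM factors, which offset differences in composition, and differences are on the log2 scale with their standard error (SE).

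Drosha cKO against WT sperm asks which late-annotated miRNAs differ when the enzyme of the first cut is deleted in germ cells. Of the 34 tested, 14 rose and 0 fell, where 22.1% of all 335 features rose and 33.1% fell. At an unadjusted p under 0.05, 20 of the 34 stood higher and 0 lower, and DESeq2 and limma also called 0 lower (13 and 9 higher). Over all 335 features, 204 had such a p in either direction, and DESeq2 called 178 and limma 127. The groups did not overlap in 19 of the 34, all with Drosha cKO higher, where 28.7% of all features showed this and 36.7% showed the opposite. The median log2 difference of the 34 was 1.90, beside 0.05 over all features. It was 1.99 over 33 of them, with members at 0 reads set to their ratio against 3 reads. Of the 25 members that reached 10 reads in WT alone, 20 were tested, 8 of them rose and 0 fell, with a median of 1.66. The rest of the 25 failed the filter, so these counts do not describe all 25. Of the rest, miR-5112 had 47 and 4 reads in WT and 3, 0 and 1 in Drosha cKO. In the same order miR-7116-5p had 1 and 21, and 5, 0 and 3, and miR-8104 had 0 and 10, and 0 in each. miR-5106 had 2 and 8, and 8, 2 and 0, and miR-7082-5p had 4 and 6, and 9, 0 and 3.

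miR-8101 had the highest level of all members in each Drosha cKO library, while miR-6412 was highest in both WT libraries and miR-6240 in both Dicer cKO libraries. miR-8101 stood at 712 and 1386 CPM in WT, 1128 and 1313 in Dicer cKO, and 8153, 4621 and 10560 in Drosha cKO. All 3 Drosha cKO libraries lay far above the other 4, which overlapped with each other. The log2 difference of Drosha cKO from WT was 2.88 (SE 0.576, edgeR adjusted p = 0.000794), and that of Dicer cKO from WT was 0.21 (SE 0.563, edgeR adjusted p = 0.785).

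miR-6240 rose in both knockouts. Its levels were 758 and 426 CPM in WT, 1986 and 2005 in Dicer cKO, and 6017, 2888 and 4002 in Drosha cKO. The 3 groups were separate and in that order. The log2 difference was 1.76 (SE 0.594, edgeR adjusted p = 0.0218) for Dicer cKO and 2.88 (SE 0.593, edgeR adjusted p = 0.00101) for Drosha cKO. The Dicer call was lost without WT library 2 (edgeR adjusted p = 0.339), Dicer cKO library 1 (0.288) or Dicer cKO library 2 (0.171).

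The GC-rich miR-5130 and miR-6538 rose in Drosha cKO sperm. miR-5130 had 75.8 and 116 CPM in WT, 386 and 306 in Dicer cKO, and 1912, 385 and 2170 in Drosha cKO, so that Drosha cKO library 2 lay at the level of the Dicer cKO libraries. Its log2 difference in Drosha cKO was 3.93 (SE 0.811, edgeR adjusted p = 0.00102), and in Dicer cKO 1.81 (edgeR adjusted p = 0.0715). miR-6538 had 75.8 and 123 CPM in WT, 170 and 140 in Dicer cKO, and 1355, 385 and 627 in Drosha cKO, and differed by 3.01 in Drosha cKO (SE 0.751, edgeR adjusted p = 0.0036). Its Drosha cKO libraries lay above all others.

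miR-5621-5p and miR-7036-5p rose in both knockouts from low levels in WT. miR-5621-5p had 30.3 and 14.4 CPM in WT, 170 and 245 in Dicer cKO, and 440, 128 and 579 in Drosha cKO. All knockout libraries lay above both WT libraries, and the knockouts overlapped. Its log2 difference was 3.25 in Dicer cKO (SE 0.918, edgeR adjusted p = 0.00828) and 4.18 in Drosha cKO (SE 0.906, edgeR adjusted p = 0.00144). The Dicer call was lost without WT library 2 (edgeR adjusted p = 0.107), Dicer cKO library 1 (0.0524) or Dicer cKO library 2 (0.0846).

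miR-7036-5p had 2 reads in WT, 19 in Dicer cKO and 42 in Drosha cKO. As ratios of summed reads over scaled totals, Dicer cKO was 7.98 times WT (95% counting interval 1.92 to 70.6) and Drosha cKO 27.4 times (7.13 to 234). The adjusted p by edgeR was 0.0445 and 0.00293. The Dicer call held in only 5 of 17 alternatives (adjusted p from 0.00836 to 0.442). Leaving out WT library 1 gave 0.16, WT library 2 0.0819, Dicer cKO library 1 0.442 and Dicer cKO library 2 0.0802.

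For miR-8101, miR-6240, miR-5130, miR-6538, miR-5621-5p and miR-7036-5p, the 6 just described, the rise in Drosha cKO sperm was called in each of the 18 alternative analyses, with adjusted p of at most 0.0456. The other 8 calls were lost in at least 2.

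Other members that rose in Drosha cKO sperm stood at lower or more variable levels. miR-8112 had 576 and 325 CPM in WT, 696 and 727 in Dicer cKO, and 1729, 963 and 1784 in Drosha cKO (log2 difference 1.75, SE 0.612, edgeR adjusted p = 0.0239). miR-5126 had 485 and 224 CPM in WT, 209 and 254 in Dicer cKO, and 1438, 513 and 1591 in Drosha cKO (1.78, SE 0.681, edgeR adjusted p = 0.0363). miR-6937-5p had 243 and 72.2 CPM in WT, 100 and 149 in Dicer cKO, and 449, 834 and 1061 in Drosha cKO (2.32, SE 0.753, edgeR adjusted p = 0.0162). In all 3 the Drosha cKO libraries lay above both WT libraries, by little for miR-5126, where Drosha cKO library 2 stood at 513.
Each of these calls depended on single libraries. Without WT library 2 the adjusted p by edgeR was 0.391 for miR-8112, 0.464 for miR-5126 and 0.289 for miR-6937-5p, and without Dicer cKO library 1 it was 0.319, 0.337 and 0.189. Without Dicer cKO library 2 it was 0.284, 0.303 and 0.168. Without WT library 1 miR-8112 had 0.105 and miR-5126 0.0803, and miR-5126 also lost its call without Drosha cKO library 1 (0.0702) or 3 (0.0637).

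Each of 3 called members with few reads, miR-7115-5p, miR-7087-3p and miR-6917-3p, had at most 1 read in WT. They passed the filter through Drosha cKO libraries, the group in which they stood high. Their rises, folds and p-values there are thus not independent of the filter. miR-7115-5p, whose hairpin ends at an acceptor site in Arrb2, had 0 reads in both WT libraries, 2 and 0 in Dicer cKO, and 13, 2 and 2 in Drosha cKO. Set against 3 reads over the WT group, its ratio of Drosha cKO to WT was 7.40 (lower 95% counting limit 5.39, edgeR adjusted p = 0.00747). miR-7087-3p had 0 and 0 reads in WT, 3 and 3 in Dicer cKO, and 11, 0 and 4 in Drosha cKO. Its ratio against 3 WT reads was 6.53 in Drosha cKO (lower 95% counting limit 4.68, edgeR adjusted p = 0.0102). For miR-7087-3p the Drosha cKO library without a read was the shallowest.
miR-6917-3p had 0 and 1 read in WT, none in Dicer cKO, and 16, 2 and 0 in Drosha cKO. Its ratio of Drosha cKO to WT was 23.5 (95% counting interval 3.71 to 979, edgeR adjusted p = 0.0303). Without WT library 2 the adjusted p by edgeR was 0.131 for miR-7115-5p, 0.144 for miR-7087-3p and 0.158 for miR-6917-3p. Without WT library 1 it was 0.0546 for miR-7087-3p and 0.174 for miR-6917-3p, which also lost its call without Dicer cKO library 1 (0.0724) or 2 (0.0796). Of the other 3p arms from intron ends, miR-7009-3p had 3 reads in WT and 19 in Drosha cKO (edgeR adjusted p = 0.0616), and miR-7045-3p had 3 and 14 (0.071), both short of the threshold.

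**Figure D3:**
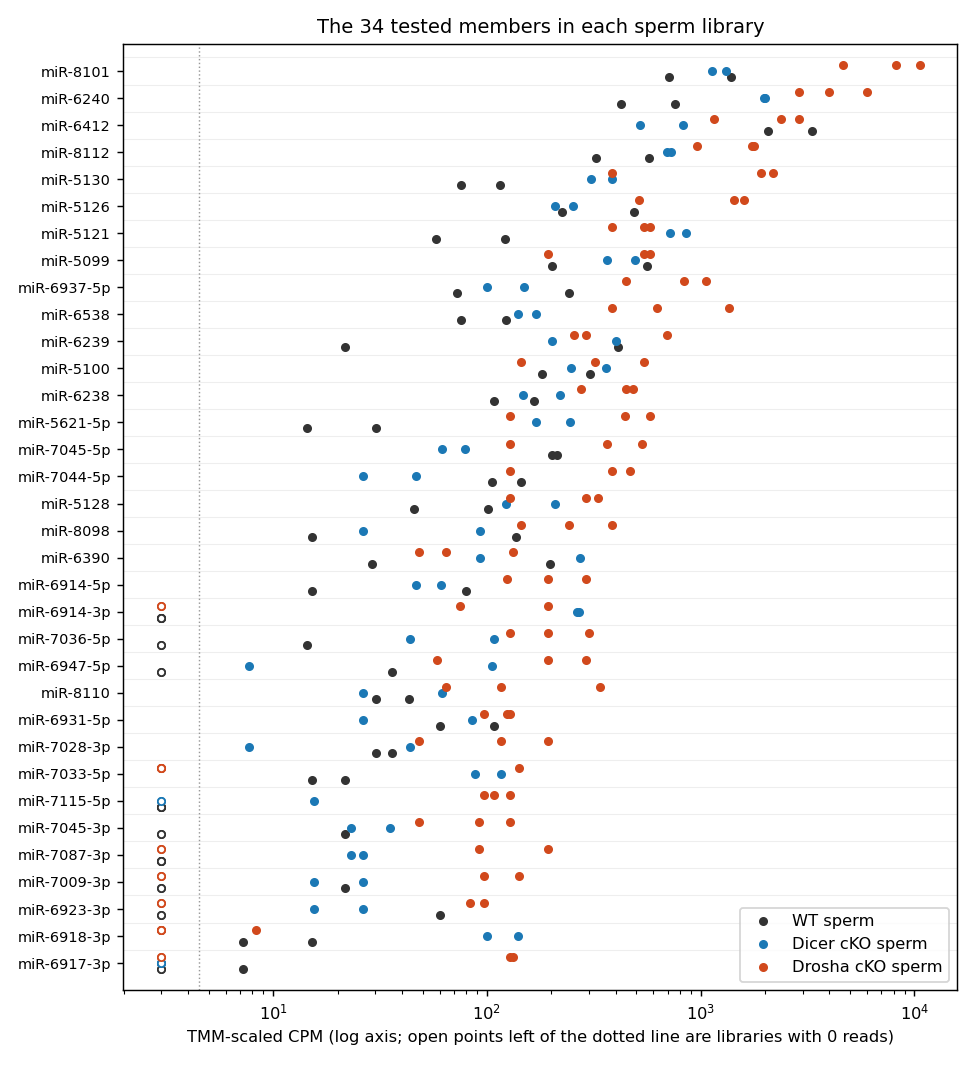
Each row is 1 of the 34 tested members, and each point is its TMM-scaled CPM (log axis) in 1 sperm library, with black for WT, blue for Dicer cKO and red for Drosha cKO. Open points left of the dotted line are libraries with 0 reads. miR-8101 is highest in Drosha cKO, at 4621 to 10560 CPM, and stands at 712 to 1386 in the other libraries, below miR-6412 in WT and miR-6240 in Dicer cKO.

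Counts with the total as the only scaling gave 26 members higher in Drosha cKO and 0 lower, and that scaling moved the median of all features to 1.04. It called 223 of all 335 features in either direction, against 185 with TMM. The members' median stood 1.84 above that of all features with TMM, 1.89 with totals alone and 1.85 with the authors' divisor. The count of 14 rises fell to 7 without WT library 2, to 9 without Dicer cKO library 1, to 9 without Dicer cKO library 2 and to 7 without both shallow Drosha cKO libraries.

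Dicer cKO against WT sperm gave 6 members higher and 1 lower of 34, where 16.1% of all features rose and 31% fell. The share of rises, 17.6% of the 34, was close to that of all features. With totals alone the count was 10 higher and 0 lower, and with the authors' divisor 5 and 0. Over all 335 features these 2 scalings called 192 and 123 in either direction, against 158 with TMM. The median log2 difference of the 34 was 0.55 beside 0.03 over all features. The groups did not overlap in 13 members with Dicer cKO higher (38.2% of all features) and in 3 with Dicer cKO lower (39.7%). The number of rises was 1 without WT library 2, 3 without Dicer cKO library 1 and 2 without Dicer cKO library 2.

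miR-6914-3p was the rise that held in all 18 alternatives. It had 0 reads in both WT libraries, 35 and 30 in Dicer cKO, and 9, 0 and 4 in Drosha cKO, or 271 and 263 CPM in Dicer cKO and 74.8, 0 and 193 in Drosha cKO. Against 3 reads over the WT group it was at least 18.2-fold higher in Dicer cKO (edgeR adjusted p = 0.000882) and at least 5.66-fold higher in Drosha cKO (edgeR adjusted p = 0.00694, and 0.0647 without WT library 2). The 5p arm of the same hairpin stood at 15.2 and 79.4 CPM in WT, 46.4 and 61.3 in Dicer cKO, and 125, 193 and 289 in Drosha cKO, and passed in no comparison. The 3p arm was thus without a read in WT, while 1 and 11 reads of the 5p arm were counted there.

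miR-5121, the sequence within Snord33, stood at 121 and 57.8 CPM in WT, 719 and 858 in Dicer cKO, and 540, 385 and 579 in Drosha cKO. Both knockouts lay above WT, and Dicer cKO above Drosha cKO. The log2 difference was 3.18 in Dicer cKO (SE 0.732, edgeR adjusted p = 0.00199) and 2.54 in Drosha cKO (SE 0.707, edgeR adjusted p = 0.00696). The adjusted p in Dicer cKO was 0.0514 without WT library 2, the only alternative in which that call was lost. In Drosha cKO it was 0.165 without that library, 0.107 without Dicer cKO library 1 and 0.0953 without Dicer cKO library 2.

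miR-6918-3p, from an intron end of Nipsnap1, had 1 read in each WT library, 13 and 16 in Dicer cKO, and 1, 0 and 0 in Drosha cKO. The ratio of Dicer cKO to WT was 12.2 (95% counting interval 3.08 to 105, edgeR adjusted p = 0.0184). Without WT library 1 the adjusted p was 0.0651, without WT library 2 0.295 and without Dicer cKO library 1 0.137, by edgeR.

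miR-6412 was the member that fell. It stood at 2061 and 3300 CPM in WT, 518 and 823 in Dicer cKO, and 2369, 1155 and 2893 in Drosha cKO. The Dicer cKO libraries were the lowest of all 7, and the Drosha cKO libraries overlapped with WT. The log2 difference was -2.00 in Dicer cKO (SE 0.633, edgeR adjusted p = 0.0159) and -0.32 in Drosha cKO (SE 0.557, edgeR adjusted p = 0.66). The fall was called in 10 of 18 alternatives. It was lost without Dicer cKO library 1 (edgeR adjusted p = 0.121), without Dicer cKO library 2 (0.0551), with totals alone (0.0645) and with the authors' divisor (0.303).

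**Figure D4:**
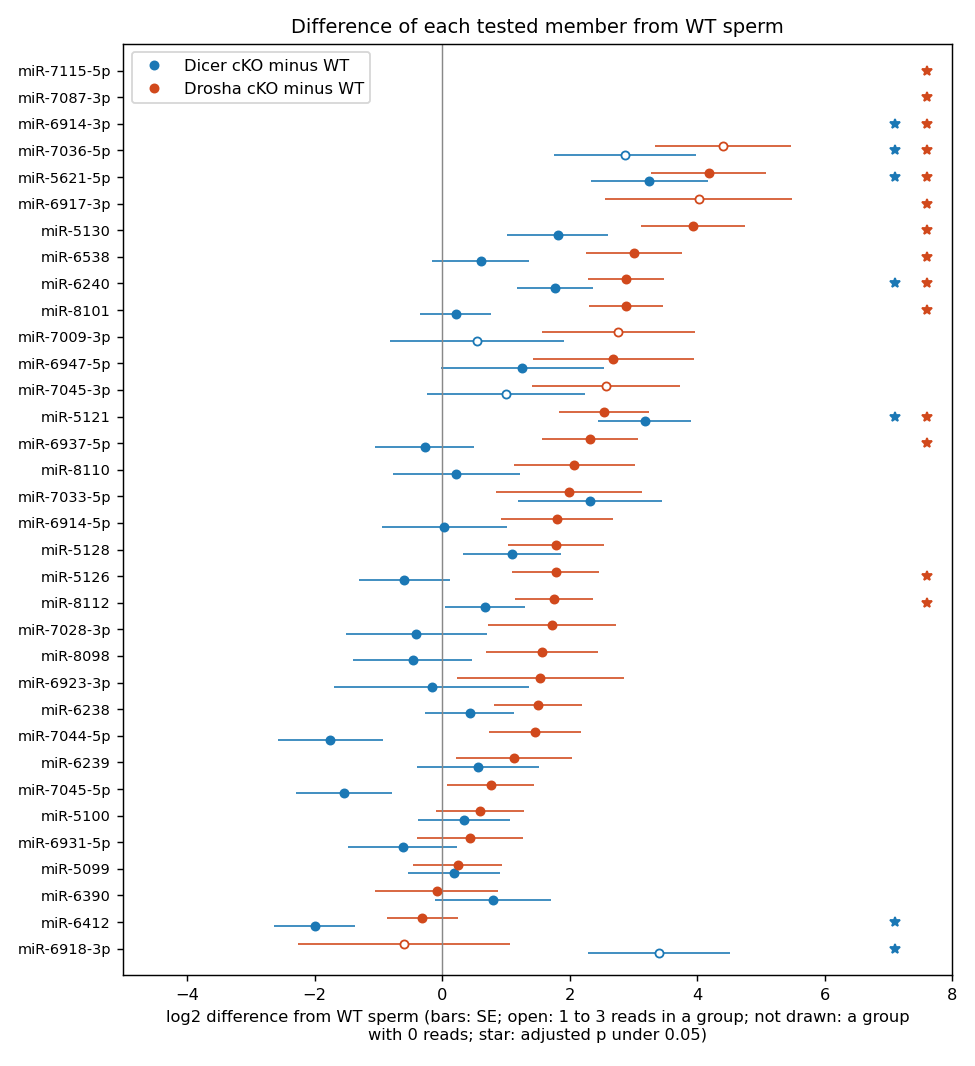
Points give the log2 difference from WT sperm of each tested member in Dicer cKO (blue) and Drosha cKO (red), with SE as bars and stars for an edgeR adjusted p under 0.05. Pairs with 0 reads in a group are not drawn, and open points have 1 to 3 reads in a group. The stars stand at the right edge, also for the called pairs without a point (miR-7115-5p and miR-7087-3p in Drosha cKO, miR-6914-3p in both). In Drosha cKO 14 members carry a star and in Dicer cKO 7, and every starred point lies on the higher side but miR-6412 in Dicer cKO, at -2.00.

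Both comparisons use the same 2 WT libraries, so their values are not independent. Of the 6 rises in Dicer cKO, 5 were also called in Drosha cKO (miR-5121, miR-5621-5p, miR-6240, miR-6914-3p and miR-7036-5p), 83.3% of the 6 and 35.7% of the 14 called in Drosha cKO. In all, 18 of the 34 passed in neither comparison. Among these, miR-5099 had 561 and 202 CPM in WT, 363 and 490 in Dicer cKO, and 540, 578 and 193 in Drosha cKO, with overlap of the groups. miR-5100 ran from 145 to 540 CPM and miR-6239 from 21.7 to 698 CPM over the 7 libraries, also with overlap. miR-6390 ran from 28.9 to 271 CPM, with its lowest and its second highest values both in WT.

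A further set missed the threshold in Drosha cKO with an unadjusted p under 0.05. miR-6238 had 167 and 108 CPM in WT, 147 and 219 in Dicer cKO, and 274, 449 and 482 in Drosha cKO (log2 difference 1.51, edgeR adjusted p = 0.0727). miR-5128, inside an intron of Strbp, had 45.5 and 101 CPM in WT, 209 and 123 in Dicer cKO, and 332, 128 and 289 in Drosha cKO (1.78, edgeR adjusted p = 0.0556). In both, each Drosha cKO library lay above both WT libraries. miR-8110 had 30.3 and 43.3 CPM in WT, 61.8 and 26.3 in Dicer cKO, and 116, 64.2 and 338 in Drosha cKO (2.07, edgeR adjusted p = 0.0733), and miR-6947-5p, from an intron end of Actr8, 0 and 36.1, 7.73 and 105, and 58.2, 193 and 289 in that order (2.69, edgeR adjusted p = 0.0805). Their Drosha cKO libraries too lay above both WT libraries, by few reads.

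Others of the 18 had no unadjusted p under 0.05 in a comparison with WT. miR-7045-5p, the other arm of the Chd4 hairpin, had 212 and 202 CPM in WT, 61.8 and 78.8 in Dicer cKO, and 366, 128 and 530 in Drosha cKO, so that the Dicer cKO libraries lay below all others. miR-8098 had 15.2 and 137 CPM in WT, 92.7 and 26.3 in Dicer cKO, and 241, 385 and 145 in Drosha cKO, with the Drosha cKO libraries above all others. miR-7033-5p, from an intron end of Pom121, had 15.2 and 21.7 CPM in WT, 116 and 87.6 in Dicer cKO, and 141, 0 and 0 in Drosha cKO. The 2 Drosha cKO libraries without a read were the shallow ones. miR-7028-3p ran from 7.73 to 193 CPM, miR-6931-5p from 26.3 to 128 CPM and miR-6923-3p from 0 to 96.4 CPM over the 7 libraries.

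Dicer cKO was then compared directly with Drosha cKO sperm, which share no library. No member and none of the 335 features passed in either direction by edgeR (0%), and no member by limma, while DESeq2 called 18 features, 7 of them members with Dicer cKO lower. At an unadjusted p under 0.05 edgeR gave 65 features, 12 of them members, 11 with Dicer cKO lower and 1 higher. The median log2 difference of Dicer cKO from Drosha cKO over the 34 was -1.62, beside 0.01 over all features. In 18 members every Dicer cKO library lay below every Drosha cKO library (19.4% of all features), and in 3 above (22.7%). miR-8101 differed by -2.67 (SE 0.568, edgeR adjusted p = 0.0694, range over the alternatives 5.02e-05 to 0.688). miR-7044-5p, whose hairpin ends at an acceptor site in Rasgef1a, stood at 106 and 144 CPM in WT, 46.4 and 26.3 in Dicer cKO, and 465, 128 and 386 in Drosha cKO. It differed by -3.21 between the knockouts (SE 0.801, edgeR adjusted p = 0.0694, range 0.00125 to 0.738). Its Dicer cKO libraries were the lowest of the 7.

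The edgeR adjusted p of this comparison was 0.082 for miR-5126, miR-6538, miR-6917-3p and miR-6937-5p, with log2 differences of -2.37, -2.40 and -2.60 for the 3 that had reads in both groups. miR-6917-3p, with 0 reads in Dicer cKO, was 9.33-fold lower there when set at 3 reads (lower 95% counting limit 6.84). The one member with an unadjusted p under 0.05 and Dicer cKO higher was miR-6918-3p, with 29 reads against 1, a ratio of 18.7 (95% counting interval 3.09 to 762, edgeR adjusted p = 0.104). The number of members called lower in Dicer cKO was 5 without WT library 1, 10 without WT library 2 and 3 without Drosha cKO library 2. It was 10 when the fit held only these 2 groups.

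Position and base composition were set beside these differences as descriptions. Beside the counts of rises stand the shares of all 335 features that rose, 22.1% in Drosha cKO and 16.1% in Dicer cKO. Of the 14 tested members with a hairpin end at an intron end, 5 rose in Drosha cKO and 2 in Dicer cKO, with median log2 differences of 2.43 and 0.77. The 14 include miR-5121, at a donor site in Rpl13a and within Snord33, which is among the rises in both knockouts. The Drosha cKO rises also include miR-6917-3p, miR-7087-3p and miR-7115-5p, which passed the filter through Drosha cKO libraries. Of the 15 tested members with another placed hairpin, 8 rose in Drosha cKO and 3 in Dicer cKO, with medians of 1.80 and 0.60. Both classes thus stood on the higher side. Of 11 tested members with a GC content of 70% or more, 6 rose in Drosha cKO and 1 in Dicer cKO, and of 20 under 70%, 7 and 4 rose. The median difference between Dicer cKO and Drosha cKO was -2.12 in the GC-rich ones and -1.27 in the rest. Among other tested miRNAs the 6 with such a GC content had a median of -2.61 and the 223 below it 0.27. The GC-rich miRNAs outside the set thus also stood lower in Dicer cKO than in Drosha cKO. Against WT these 6 had a median of 2.46 in Drosha cKO, where 3 rose and 0 fell. In Dicer cKO their median was -0.26, where 0 rose and 1 fell. The 223 had medians of -0.11 in Drosha cKO and 0.22 in Dicer cKO. Over the 31 tested members with a sequence, Spearman's rho of GC content with the Drosha cKO difference was 0.20, a description across miRNAs that share their libraries.

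A list of miRNAs known to be made without Drosha's complex was read beside the members. It held 10 miRNAs, none of them a member, among them miR-484 and miR-320-3p from transcription start hairpins and the mirtrons miR-877-3p and miR-1224-5p. Of the 5 that were tested, 0 rose and 0 fell in either knockout, by edgeR. miR-320-3p had log2 differences of 1.76 in Dicer cKO (edgeR adjusted p = 0.10) and 0.43 in Drosha cKO (0.688), and miR-484 of -0.22 (0.848) and 0.71 (0.481). The list's median was 0.26 and 0.71. Its summed reads were 0.117% and 0.0258% of listed reads in WT, 0.185% and 0.0952% in Dicer cKO, and 0.231%, 0.10% and 0.214% in Drosha cKO.

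The 63 members below the filter were also read as a sum. They made up 0.147% and 0.071% of listed reads in WT, 0.150% and 0.174% in Dicer cKO, and 0.366%, 0.250% and 0.352% in Drosha cKO. On this scale the order of the groups was that of all members together. In RPM their sum was 31.7 and 71.4 for WT, 66.6 and 122 for Dicer cKO, and 98.6, 72.7 and 74.3 in Drosha cKO, where the Dicer cKO libraries overlapped with both other groups.

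In the oocyte and 2PN libraries, with 5530, 3243, 2951 and 8967 listed reads and no replicates, few member reads were counted. The members held 45 reads in the oocyte (0.814%, 95% exact interval 0.594% to 1.09%), 20 in 2PN from WT sperm (0.617%, 0.377% to 0.951%), 9 in 2PN from Dicer cKO sperm (0.305%, 0.140% to 0.578%) and 10 in 2PN from Drosha cKO sperm (0.112%, 0.0535% to 0.205%). The interval of 2PN from Dicer cKO sperm overlaps with those of both other 2PN libraries, and the intervals of the oocyte and 2PN from WT sperm overlap. The members were chosen on sperm reads: without that floor, all late-numbered miRNAs held 2.24% in the oocyte, 2.10% in 2PN from WT sperm, 3.08% in 2PN from Dicer cKO sperm and 1.24% in 2PN from Drosha cKO sperm. By value alone, the embryos from Dicer cKO sperm stood below those from WT sperm with the floor and above them without it. Those from Drosha cKO sperm were lowest both ways. No interval was computed for the shares without the floor, and each is from 1 library. At least 1 read in these 4 libraries was counted for 22 members, and 3 or more in a library for 5.

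miR-5100 was the leading member of the oocyte, with 18 reads (0.325%, 95% exact interval 0.193% to 0.514%), and had 5 reads in 2PN from WT sperm and none in the other 2 embryo libraries. A count of 0 allows up to 0.102% of listed reads in 2PN from Dicer cKO sperm and 0.0335% in 2PN from Drosha cKO sperm. In sperm it held 0.00896% to 0.0644%, below its oocyte share in all 7 libraries. miR-6240 had 6 reads in the oocyte (0.108%, 0.0398% to 0.236%), 7 in 2PN from WT sperm (0.216%, 0.0868% to 0.444%) and 1 in each of the others. Its sperm share was 0.0211% to 0.717%. miR-6239 had 4 reads in the oocyte and 0 in the embryos, miR-6923-3p had 3, 1, 0 and 1 in the order oocyte, WT, Dicer cKO and Drosha cKO embryos, and miR-6236 had 3 in 2PN from WT sperm alone. miR-8101, which had the most reads summed over the sperm libraries, had 0 reads in all 4 libraries, as did miR-5130, miR-5126 and miR-6538. For members with 0 to 2 reads in each of these libraries, a difference between embryos was not detectable at this depth.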

How the data were processed

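Small RNA of 11 mouse libraries was sequenced; per the labels, RNA was extracted with mirVana and the platform is given as Ion Torrent Proton in the series text. The authors deposited raw read counts for 2304 features and RPM values made from them with 1 whole-number divisor for every library (412523 to 3743577). What it counts, the miRNA release and the counting rule are not stated in the labels; Bowtie and mm10 are named in the submitters' processing notes. Reads shared by near-identical miRNAs cannot be assigned from these counts.

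The members and lists, including the marker and pathway lists, were chosen with earlier results of these data known. Groups came from the labels. All 7 sperm libraries were fitted with edgeR 4.0.16 (R 4.3.3; TMM, filterByExpr, quasi-likelihood test, two-sided, Benjamini-Hochberg over 335 features, threshold 0.05), tested first on simulated data. The biological coefficient of variation was 0.459. The SE is the log2 difference divided by the square root of its F statistic. DESeq2 1.42.0 and limma 3.58.1 (log2 of RPM + 1 or + 0.1) were alternatives, with other scalings, filters, a replicate block and libraries left out. Named with values were the 34 members that passed the filter, the 8 with most sperm reads, and 3 on each side of the floor. Those with 3 or more reads in an oocyte or 2PN library, and those with at least 10 WT reads that failed the filter, were named too. Called differences are given on the log2 scale or, with 0 to 3 reads in a group, as folds. The other differences given were chosen with their values known. Shares have 95% Clopper-Pearson intervals. A fold against 0 reads sets that group at 3 reads and stands beside the lower limit of its exact 95% counting interval. A fold with 1 to 3 reads has an exact counting interval. These limits and intervals cover counting error only. Sequences and GRCm38.p6 positions came from RefSeq tables. Intron positions came from exact matches of hairpins to NCBIM37. Replicates differed beyond counting error (chi-square per degree of freedom 5.74 to 42).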

Additional observations from a re-analysis of the deposited data

Results flagged for a closer look

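Late-numbered miRNAs that missed the floor in sperm gave signal in the oocyte and 2PN libraries, which entered no comparison. Above the 3 reads that a count of 0 allows, 11 of them were counted in at least 1 of these 4 libraries. Reads are given in the order oocyte, 2PN from WT, from Dicer cKO and from Drosha cKO sperm. miR-5119 had 5, 1, 5 and 26 reads against 5 over all 7 sperm libraries. miR-6926-3p had 7, 13, 12 and 8 reads against 1 in sperm, and miR-6938-5p 4, 3, 10 and 13 against 2. miR-6959-3p had 3, 8, 2 and 5 against 7, and miR-6978-3p 0, 1, 5 and 1 against 0. In the others the most reads in 1 such library were 4, for miR-5620-3p, miR-6911-3p, miR-7035-5p, miR-7066-3p, miR-7084-5p and miR-8092. With 1 library of each kind, none of these differences was tested.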

How the results depend on the processing

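The members higher in Drosha cKO numbered 14, and 13 by DESeq2, 26 with totals alone, 9 with only the 2 groups fitted, 9 and 8 by limma with pseudocounts of 1 and 0.1, 8 without a low-count filter, 9 with a filter of 10 CPM in 2 libraries, 7 without the shallow Drosha cKO libraries, and 7 to 17 with 1 library left out. Members lower numbered 0, and 1 without the filter and with 10 CPM, and 0 to 1 with 1 library left out. In Dicer cKO the 6 higher became 10 with totals alone and 1 to 8 with 1 library left out; the 1 lower became 0 with totals alone, with the authors' divisor, without the filter and by limma with either pseudocount, 3 without the shallow libraries and 1 to 3 with 1 library left out. Between Dicer cKO and Drosha cKO, members lower numbered 7 by DESeq2, 3 with totals alone, 10 with 2 groups and 0 to 10 with 1 library left out, and members higher 1 with 2 groups and 0 to 1 with 1 library left out. The cause of these changes was not tested, except that leaving out a library of a pair lets more features through the filter and leaves 1 library, assumed to vary like the others. Over all features, calls in either direction in Drosha cKO against WT numbered 185 of 335, 178 by DESeq2 and 223 with totals alone. They numbered 127 and 100 by limma, 152 of 295 with 2 groups, 112 of 2186 without the filter and 147 of 947 with 10 CPM.

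The replicate number as a block gave 12 rises in Drosha cKO, 6 rises and 1 fall in Dicer cKO and 3 members lower in Dicer cKO than in Drosha cKO, where it called 8 features in all (edgeR adjusted p = 0.0252 for miR-8101 and 0.0447 for miR-7044-5p and miR-6538). Deviations of same-numbered libraries correlated at 0.181 to 0.312; with 2 numbers shared by all groups and no label that ties a number to an animal or day, the libraries were taken to share only a number.

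Among the log2 differences given, 8 alternative values changed sign, all of differences that passed in no analysis. miR-5126 in Dicer cKO (-0.59) was 0.46 with the authors' divisor, 0.37 and 0.40 by limma with pseudocounts of 1 and 0.1, and ran from -1.59 to 0.033 with 1 library left out. miR-8101 in Dicer cKO (0.21) then ran from -0.20 to 0.39 and miR-8112 (0.67) from -0.22 to 1.12. miR-6412 in Drosha cKO (-0.32) was 0.64 with totals alone and ran from -1.08 to 0.078. Scaling moved the median of all features in Dicer cKO from 0.03 to 0.62 with totals alone and 0.88 with the authors' divisor. The summed share in Dicer cKO (1.12%) was 1.31% without the floor on sperm reads and 0.99% without miR-8101. Without the floor it was 2.24% in the oocyte, and 2.10% in 2PN from WT, 3.08% from Dicer cKO and 1.24% from Drosha cKO sperm. The 2 shallow Drosha cKO libraries limit the rare members: 1 read is 64.2 and 48.2 CPM there.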
